A study of Saccharomyces cerevisiae with 18 samples.

Results

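Ribosome footprints on 10 yeast genes were followed by ribosome profiling in 4 strains. These genes take up and assimilate nitrogen, or are known to be held down by nitrogen catabolite repression. The genes were *GAP1*, *MEP1*, *MEP2*, *MEP3*, *DAL80*, *DAL82*, *GLN1*, *GDH1*, *GDH2* and *GLT1*, chosen by name for their known roles. All 10 were listed among the 6085 genes of the monosome table and among the 5767 genes of the disome table. A footprint is the mRNA fragment that a ribosome shields from nuclease. A monosome footprint comes from a single ribosome, and a disome footprint comes from a pair of ribosomes that have run into each other. Footprint counts of a gene depend on its mRNA level and on the ribosomes per mRNA. No mRNA levels were used here, so these were not separated, and footprint changes below may include changes in mRNA level. Ncs2 and Elp6 are both needed to modify the wobble uridine of certain tRNAs, and Hel2 is the ubiquitin ligase that recognises collided ribosomes. The groups were *ncs2*∆*elp6*∆*hel2*∆ (the triple deletion, 2 monosome and 2 disome libraries), *ncs2*∆*elp6*∆ (3 monosome and 2 disome), *hel2*∆ (2 monosome and 2 disome) and wild type (WT, 3 monosome and 2 disome).

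All strains were derived from BY4741, a haploid of mating type a, and were grown in the rich medium YPD at 30 °C. The labels give *his3*∆1, *leu2*∆0 and *ura3*∆0 as the starting alleles. In the mutants *HEL2* was replaced by the *LEU2* marker, *NCS2* by HIS3MX and *ELP6* by *URA3*, and the triple deletion carried all 3 replacements. The labels list *met15*∆0 for WT alone. YPD is rich in amino acids, so every group was measured under good nitrogen supply.

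Yeast cells fix ammonium by a short cycle. Gdh1 and Gln1 add ammonium to alpha-ketoglutarate and to glutamate, and Glt1 turns glutamine and alpha-ketoglutarate back into glutamate, whereas Gdh2 runs the other way and releases ammonium from glutamate. Mep1, Mep2 and Mep3 carry ammonium into the cell, and Gap1 carries amino acids. When a good nitrogen source is present, the GATA activators Gln3 and Gat1 are kept from genes such as *GAP1*, *MEP2* and *DAL80*, and Dal80 is itself a GATA repressor of the same promoters, a state known as nitrogen catabolite repression. Dal82 is needed for induction of the genes that break down allantoin and urea.

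The 10 monosome libraries held 2381991 to 4352295 counted footprints in the triple deletion, 13791038 to 24884873 in *ncs2*∆*elp6*∆, 2560606 to 3548631 in *hel2*∆ and 11702547 to 13710907 in WT. The 8 disome libraries held 845707 to 2521397. Among the monosome libraries, low depth and the *LEU2* marker went with the loss of *HEL2*, and the part of each cannot be told apart. The deleted genes followed the labels: *HEL2* had 1 to 3 monosome counts in the triple deletion and 4 to 6 in *hel2*∆, against 973 to 1990 in *ncs2*∆*elp6*∆ and 880 to 1251 in WT, and in monosomes *NCS2* and *ELP6* averaged at most 1.05 CPM (footprint counts scaled to a library total of 1e6) where deleted and at least 17.6 CPM elsewhere. *MET17*, the gene also called *MET15*, averaged 211 CPM in the triple deletion and 236 CPM in *ncs2*∆*elp6*∆, against 0.336 CPM in *hel2*∆ and 0.638 CPM in WT, so every comparison of strains with and without *NCS2* and *ELP6* was also a comparison of strains with and without *MET15* expression. *LEU2* averaged 24.1 CPM in the triple deletion and 7.82 CPM in *hel2*∆, against 0.0563 CPM in *ncs2*∆*elp6*∆ and 0.152 CPM in WT, but it had at most 1 count in any disome library. *URA3* had at most 2 counts in any library. Genes of mating type a summed to 551 to 1134 CPM over the monosome libraries, and those of the other mating type to 0.638 to 3.45 CPM. The study describes its replicates as biological, and the p-values measure the spread between these libraries.

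Per kilobase of coding sequence, the assimilating enzymes had far more monosome footprints than the permeases and regulators in every strain. Mean monosome density was 435 CPM per kb for *GLN1*, 119 for *GDH1* and 69.6 for *GLT1* in the triple deletion. The same 3 genes had 485, 324 and 62.4 CPM per kb in *ncs2*∆*elp6*∆, 764, 152 and 95.04 in *hel2*∆, and 635, 380.4 and 57.2 in WT. *GLN1*, *GDH1* and *GLT1* held ranks 1, 2 and 3 in each strain. Below them the order changed with the strain. *GDH2* had rank 4 in the triple deletion (19.96 CPM per kb) and in *hel2*∆ (18.0), *GAP1* had it in *ncs2*∆*elp6*∆ (15.5), and *MEP3* had it in WT (13.3). *MEP1*, *MEP2* and *DAL80* were the lowest 3 in all strains, at no more than 3.60 CPM per kb. In this order the libraries of neighbouring genes overlapped for *MEP1* and *MEP2* in the triple deletion, *ncs2*∆*elp6*∆ and *hel2*∆, for *GAP1* and *GDH2* and for *GDH2* and *DAL82* in *ncs2*∆*elp6*∆, and for *GAP1* and *DAL82* in WT. All other neighbours were apart.

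**Figure D1:**
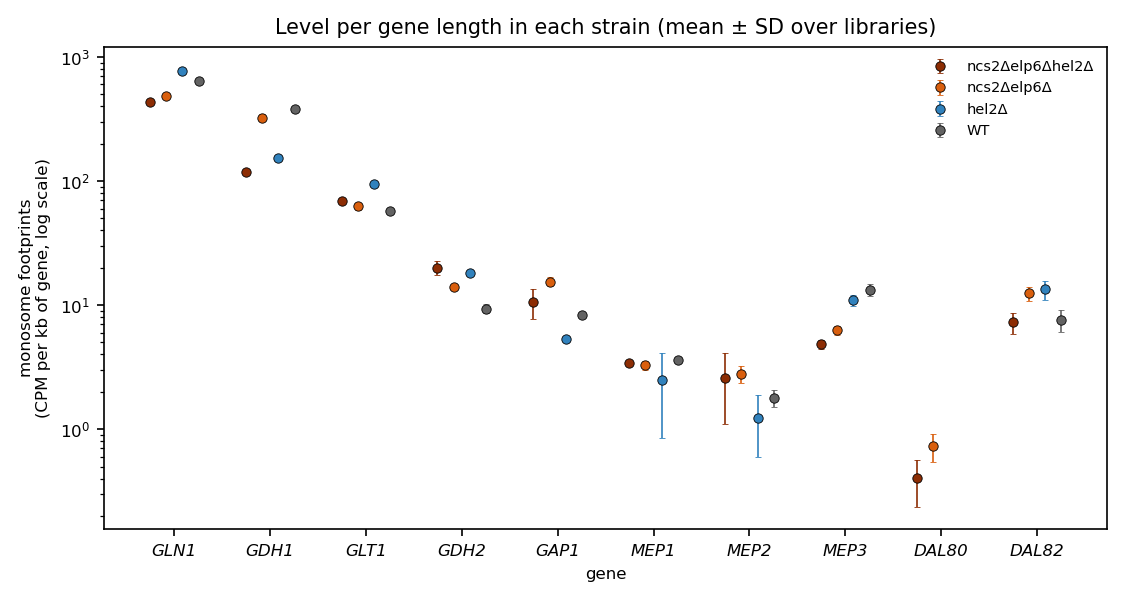
Monosome footprint density of the 10 genes in each strain, in CPM per kb of coding sequence on a log axis, with a point per strain mean and SD bars over 2 or 3 libraries. *GLN1*, *GDH1* and *GLT1* stand above the other 7 genes in all strains, and *DAL80*, with no counts in *hel2*∆ and WT, has no point there.

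*GDH1* encodes the NADP-dependent enzyme that makes glutamate from ammonium (YOR375C, chromosome XV, 1041678 to 1043042 in the R64 assembly). It varied most among the members with high footprint levels. It had 161 and 164 CPM in the triple deletion, 441, 469.8 and 414 CPM in *ncs2*∆*elp6*∆, 206 and 209.7 CPM in *hel2*∆, and 532, 531 and 494 CPM in WT. Every library without *HEL2* lay below every library with it, and the 4 strains did not overlap. *GLN1*, glutamine synthetase (YPR035W, chromosome XVI, 642208 to 643320), had 492 and 477 CPM in the triple deletion, 513, 547 and 560.4 CPM in *ncs2*∆*elp6*∆, 879 and 821 CPM in *hel2*∆, and 714, 687 and 719 CPM in WT. Here the split ran the other way, between the strains that lacked *NCS2* and *ELP6*, all at or under 560.4 CPM, and those that kept them, all at or above 687 CPM. *GLT1*, glutamate synthase (YDL171C, chromosome IV, 149203 to 155640), had 465 and 432 CPM in the triple deletion, 408, 424 and 375 CPM in *ncs2*∆*elp6*∆, 619 and 605 CPM in *hel2*∆, and 384, 351 and 371 CPM in WT. The *hel2*∆ libraries were highest, the triple deletion lay just above *ncs2*∆*elp6*∆, and *ncs2*∆*elp6*∆ overlapped WT. *GDH2*, the NAD-dependent enzyme that degrades glutamate (YDL215C, chromosome IV, 70640 to 73918), had 71.4 and 59.5 CPM in the triple deletion, 45.6, 47.9 and 43.5 CPM in *ncs2*∆*elp6*∆, 59.0 and 59.2 CPM in *hel2*∆, and 33.8, 29.3 and 29.2 CPM in WT. All mutant libraries lay above all WT libraries, and both strains without *HEL2* lay above both strains with it, the reverse of the split seen for *GDH1*.

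Among the permeases, *GAP1*, the general amino acid permease (YKR039W, chromosome XI, 515063 to 516871), had 22.7 and 15.4 CPM in the triple deletion, 25.3, 29.3 and 29.4 CPM in *ncs2*∆*elp6*∆, 9.76 and 9.58 CPM in *hel2*∆, and 15.3, 14.4 and 15.0 CPM in WT. The *ncs2*∆*elp6*∆ libraries were highest and the *hel2*∆ libraries lowest, with the triple deletion and WT between them. *MEP3*, an ammonium permease (YPR138C, chromosome XVI, 810984 to 812453), had 7.56 and 6.66 CPM in the triple deletion, 9.08, 10.1 and 8.56 CPM in *ncs2*∆*elp6*∆, 14.8 and 17.2 CPM in *hel2*∆, and 19.9, 21.4 and 17.2 CPM in WT. It was low wherever *NCS2* and *ELP6* were absent. *MEP1* (YGR121C, chromosome VII, 731449 to 732927) lay between 1.95 and 5.64 CPM in all monosome libraries, with only 5 and 19 counts in *hel2*∆. *MEP2*, the high-affinity ammonium permease (YNL142W, chromosome XIV, 357453 to 358952), lay between 1.17 and 5.46 CPM, with 13 and 10 counts in the triple deletion and 3 and 9 in *hel2*∆. For *MEP1* the strains overlapped in every comparison. For *MEP2* the *ncs2*∆*elp6*∆ libraries, at 3.48 to 4.82 CPM, lay above those of WT, at 2.22 to 3.03 CPM, and the other comparisons overlapped. *MEP1* and *MEP3* are close relatives, as are *GDH1* and *GDH3*, and footprints shared between such copies were not counted, which leaves their levels uncertain. *GDH3* averaged at most 3.11 CPM in any strain.

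Of the regulators, *DAL80* was the lowest member in every strain, whereas *DAL82* ranked above *MEP1* and *MEP2* in all of them. *DAL80*, the GATA repressor (YKR034W, chromosome XI, 506898 to 507707), had 1 and 1 monosome counts in the triple deletion, 19, 9 and 7 in *ncs2*∆*elp6*∆, and 0 in both *hel2*∆ and all 3 WT libraries. Its mean of 0.592 CPM in *ncs2*∆*elp6*∆ was at least 2.49-fold higher than in WT, where a floor of 3 counts per library corresponds to 0.238 CPM. In *hel2*∆ the same floor corresponds to 1.01 CPM, above that mean, so the 0 counts there do not show a lower level. *DAL82*, the activator of allantoin and urea catabolism (YNL314W, chromosome XIV, 44447 to 45214), had 6.30 and 4.83 CPM in the triple deletion, 9.72, 8.21 and 10.7 CPM in *ncs2*∆*elp6*∆, 8.98 and 11.6 CPM in *hel2*∆, and 5.82, 4.70 and 7.002 CPM in WT. The single and double mutants lay above WT, whereas the triple deletion overlapped WT.

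**Figure D2:**
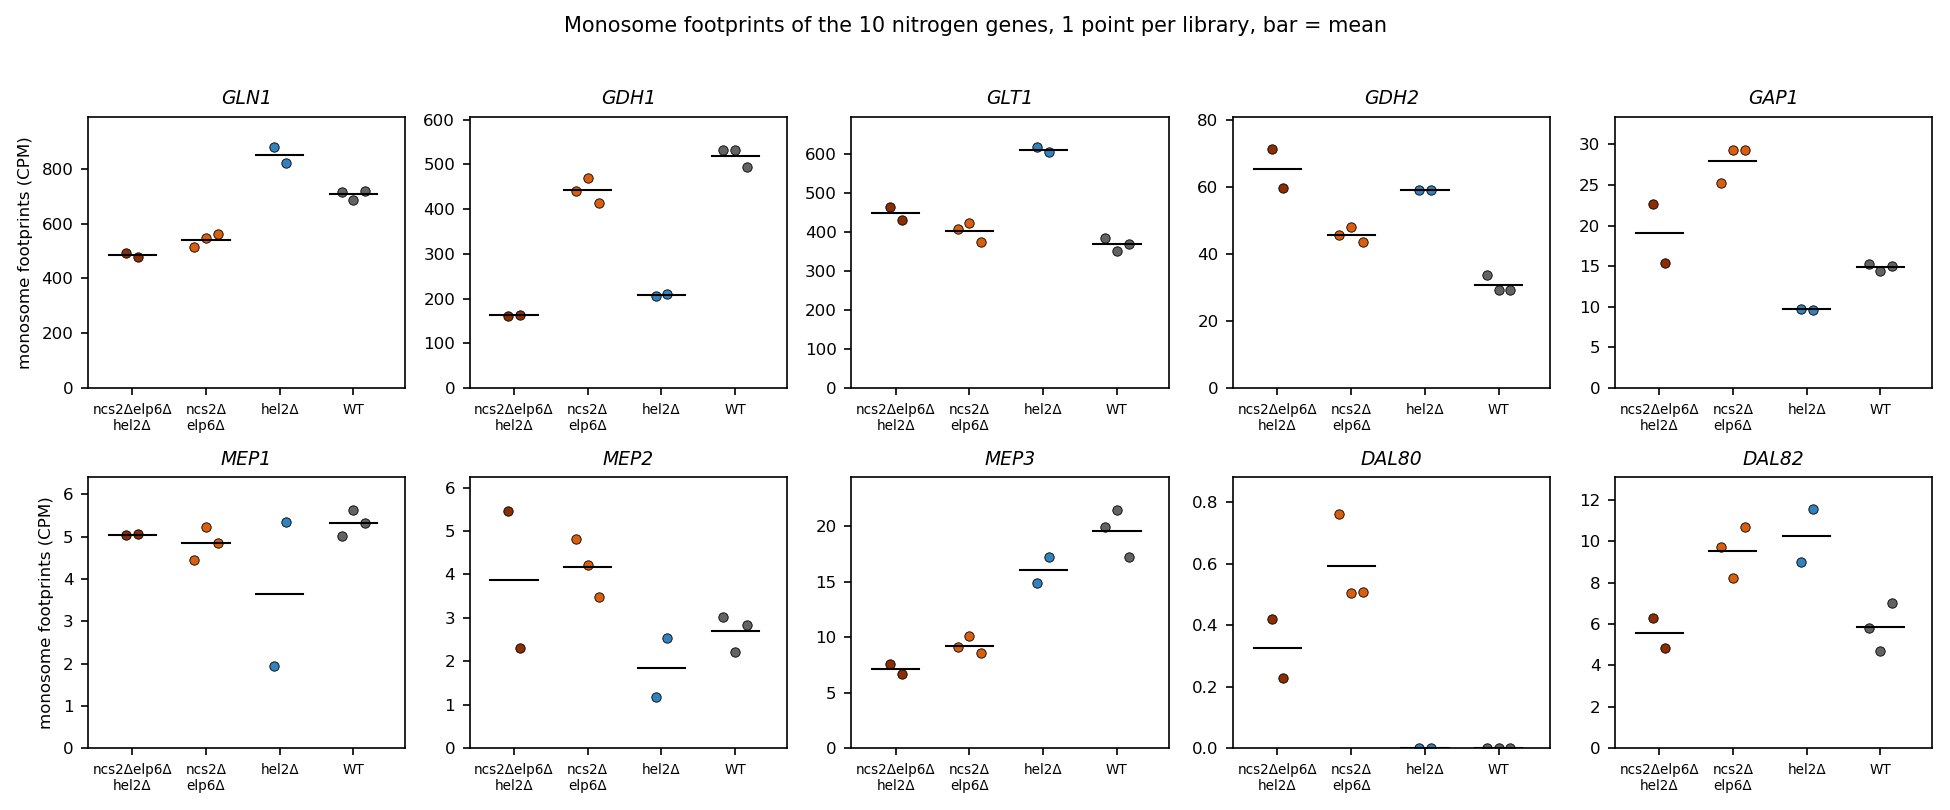
Monosome CPM of each of the 10 genes, 1 panel per gene and 1 point per library, with the strains ordered from the triple deletion on the left to WT on the right and a bar at each strain mean. *GDH1* separates by *HEL2*, *GLN1* and *MEP3* separate by *NCS2* and *ELP6*, and *DAL80* has counts above 0 in the strains without *NCS2* and *ELP6* alone. These are 1 count per library in the triple deletion, and the *hel2*∆ libraries are too shallow for their 0 counts to show a lower level.

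The log2 changes that follow were fitted after TMM scaling, which sets each library against the bulk of its genes, and so they differ from plain ratios of CPM. Scaling by library totals instead moved the median change of all genes up by 0.26 for *ncs2*∆*elp6*∆ over WT, 0.24 for *hel2*∆ over WT, 0.14 for the triple deletion over *ncs2*∆*elp6*∆ and 0.13 for the triple deletion over *hel2*∆. A gene was called where the adjusted p-value of the quasi-likelihood test of edgeR was under 0.05. The comparisons share strains, so they are not independent of each other.

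The loss of *NCS2* and *ELP6* was examined first in cells with Hel2. *GLN1* and *GDH1*, which both fix ammonium, fell by 0.64 and 0.49 on the log2 scale in *ncs2*∆*elp6*∆ against WT, and the ammonium permease *MEP3* fell most of the members tested, by 1.33. *GAP1* rose by 0.65, and *DAL82* and *GDH2* rose by 0.44 and 0.31. In all, 3 of the 9 members tested rose, 3 fell and 3 were not called, whereas of all 5281 genes tested 53% were called, 26.6% higher and 26.4% lower. The members' median change was -0.13, against 0.02 for all genes. The fall of *MEP3* (SE 0.12, 95% interval -1.59 to -1.07, adjusted p = 3.03e-07), of *GLN1* (SE 0.07, interval -0.79 to -0.49, adjusted p = 2.29e-06) and of *GDH1* (SE 0.07, adjusted p = 4.34e-05) was past the threshold, as was the rise of *GAP1* (SE 0.11, adjusted p = 1.04e-04) and of *GDH2* (SE 0.09, adjusted p = 0.0078). *GLT1* changed by -0.13 (interval -0.28 to 0.02, adjusted p = 0.124), *MEP1* by -0.40 (adjusted p = 0.0512) and *MEP2* by 0.39 (adjusted p = 0.127), none of them called. *DAL80* had too few counts to be tested. The call of *DAL82* (adjusted p = 0.0315) was lost without WT replicate 1 (adjusted p = 0.0582) or 2 (0.146) and without *ncs2*∆*elp6*∆ replicate 1 (0.0770) or 3 (0.124), and with DESeq2 (0.0572). In libraries thinned to equal depth *GAP1* (adjusted p = 0.0975), *DAL82* (0.196) and *GDH2* (0.468) were not called. With library totals *MEP2* was called too (0.64, adjusted p = 0.0155), and *GLT1* had the opposite sign at 0.13 and was not called.

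The loss of *HEL2*, with the *LEU2* marker and low depth that came with it, was examined first in cells with intact tRNA modification. *GDH1* fell by 1.57 on the log2 scale in *hel2*∆ against WT (SE 0.08, interval -1.74 to -1.39, adjusted p = 8.35e-10). Both glutamate synthase and the glutamate-degrading enzyme rose, *GLT1* by 0.49 (SE 0.07, adjusted p = 8.95e-05) and *GDH2* by 0.70 (SE 0.12, interval 0.44 to 0.95, adjusted p = 3.35e-04). *GAP1* fell by 0.87 (SE 0.19, adjusted p = 0.00194) and *MEP3* by 0.52 (SE 0.18, adjusted p = 0.0357). These were 2 higher and 3 lower of 9 members tested, against 31.9% of 5225 genes called, 14.7% higher and 17.2% lower, and the members' median was -0.52, against 0.03 for all genes. *GLN1* changed by 0.02 (interval -0.13 to 0.17, adjusted p = 0.854), although with library totals it was called at 0.27 (adjusted p = 0.0051). *DAL82* (0.58, adjusted p = 0.0778), *MEP1* (-0.70, 0.128) and *MEP2* (-0.71, 0.236) were not called. The call of *MEP3* was lost without any 1 of WT replicates 1 and 2 and *hel2*∆ replicates 1 and 2 (adjusted p = 0.0748, 0.118, 0.250 and 0.131) and with library totals (-0.27, 0.22) or DESeq2 (0.0793), and that of *GAP1* was lost without *hel2*∆ replicate 2 (adjusted p = 0.0518) and in thinned libraries (0.061). *MEP1* was called without *hel2*∆ replicate 2 (-1.69, adjusted p = 0.0499), and *DAL82* without WT replicate 3 (0.70, 0.0209) with the replicate number as a block (0.73, 0.0134) and with library totals (0.82, 0.0174).

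The fall of *GDH1* on loss of *HEL2*, which came with the *LEU2* marker and low depth, was nearly the same size without the modifications. It fell by 1.58 in the triple deletion against *ncs2*∆*elp6*∆ (SE 0.08, interval -1.76 to -1.41, adjusted p = 1.14e-09). *DAL82*, *GAP1* and *GLN1* also fell, by 0.96 (SE 0.25, adjusted p = 0.0107), 0.75 (SE 0.165, adjusted p = 0.00366) and 0.30 (SE 0.08, adjusted p = 0.0109), and *GDH2* rose by 0.36 (SE 0.10, adjusted p = 0.0189). *GLT1* changed by 0.02 (interval -0.14 to 0.17, adjusted p = 0.909). Of 9 members tested, 1 rose and 4 fell, against 24.3% of 5318 genes called, 12% higher and 12.2% lower, with medians of -0.44 for the members and 0.00 for all genes. *MEP1*, *MEP2* and *MEP3* changed by -0.07, -0.44 and -0.54 and were not called (adjusted p = 0.899, 0.398 and 0.068). Every call except that of *GDH1* was lost when 1 triple deletion library was left out, *GLN1* without replicate 1 (adjusted p = 0.0623) or 2 (0.0769), *GDH2* without replicate 1 (0.203), and *GAP1* (-0.45, 0.168) and *DAL82* (0.199) without replicate 2. *GLN1* was also lost with library totals (-0.16, 0.127), *GAP1* in libraries thinned to equal depth (0.208) and *GDH2* with the replicate number as a block (0.35, 0.0511).

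Without *NCS2* and *ELP6* in cells that lacked Hel2, the assimilating enzymes fell together. In the triple deletion against *hel2*∆, *GLN1* fell by 0.94 (SE 0.07, adjusted p = 3.58e-18), *GLT1* by 0.58 (SE 0.07, adjusted p = 1.53e-10) and *GDH1* by 0.48 (SE 0.08, adjusted p = 3.83e-06). *MEP3* fell by 1.33 (SE 0.25, adjusted p = 1.55e-05) and *DAL82* by 1.08 (SE 0.30, adjusted p = 0.00253), whereas *GAP1* rose by 0.78 (SE 0.24, adjusted p = 0.00579). *GDH2* stood at -0.00 with an interval of -0.26 to 0.25 (adjusted p = 0.981), and *MEP1* at 0.24 (adjusted p = 0.66). Of the 8 members tested, which left out *MEP2* and *DAL80*, 1 rose and 5 fell, against 44.2% of 5027 genes called, 22.5% higher and 21.7% lower, and the medians were -0.53 for the members and 0.00 for all genes. The call of *GAP1* was lost without *hel2*∆ replicate 2 (adjusted p = 0.0662) or triple deletion replicate 1 (0.0741), and that of *DAL82* without *hel2*∆ replicate 2 (0.144) or triple deletion replicate 2 (0.0667). With DESeq2 the adjusted p was 0.121 for *GAP1* and 0.127 for *DAL82*.

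**Figure D3:**
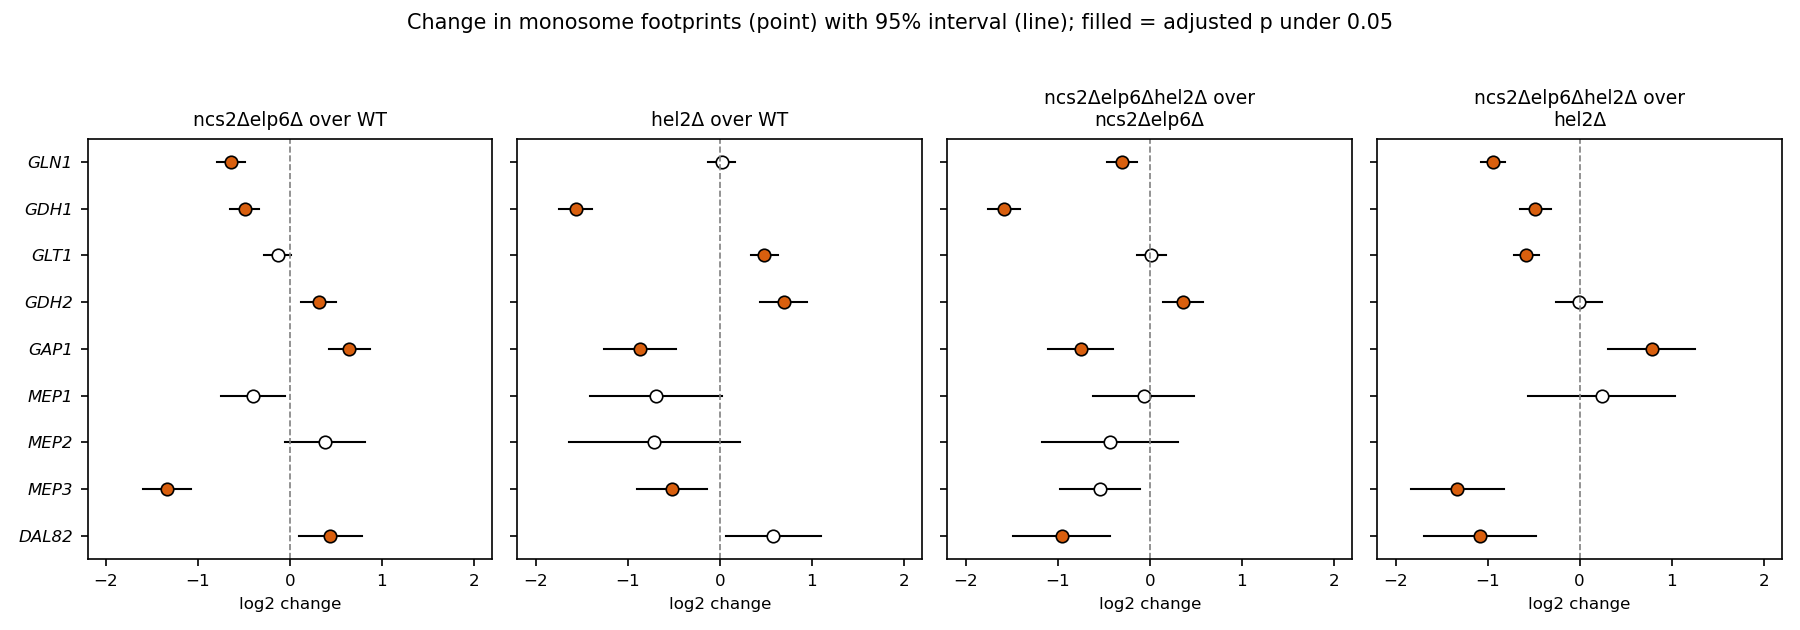
Log2 change of each tested gene in the 4 monosome comparisons, with 95% intervals and filled markers for genes called at an adjusted p under 0.05. *GDH1* lies near -1.6 in both comparisons that remove *HEL2*, and *MEP3* lies at -1.33 in both that remove *NCS2* and *ELP6*.

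Whether the effect of losing *HEL2* depended on tRNA modification was tested as the change in the triple deletion over *ncs2*∆*elp6*∆ minus the change in *hel2*∆ over WT, which is also the difference between the effects of *ncs2*∆*elp6*∆ without and with Hel2. *DAL82* and *GLT1* differed, by -1.54 (SE 0.35, interval -2.27 to -0.80, adjusted p = 0.0147) and -0.46 (SE 0.10, interval -0.67 to -0.25, adjusted p = 0.00999). For *GDH1* the difference was -0.01 with an interval of -0.24 to 0.23 (adjusted p = 0.981). Thus 0 of 9 members were higher and 2 were lower, against 5.29% of 5354 genes called, 2.99% higher and 2.3% lower. *GLN1* (-0.31, adjusted p = 0.0789), *GDH2* (-0.33, 0.224), *GAP1* (0.13, 0.811), *MEP1* (0.63, 0.426), *MEP2* (0.30, 0.81) and *MEP3* (-0.02, 0.986) were not called, and *GLN1* was called with library totals (-0.42, 0.0106). The call of *DAL82* was lost without *hel2*∆ replicate 2 (adjusted p = 0.177) or triple deletion replicate 2 (0.134) and in thinned libraries (0.0541), and that of *GLT1* without *hel2*∆ replicate 1 (0.0681) or 2 (0.0865) or triple deletion replicate 2 (0.0738).

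Disome footprints on *GLN1* and *GDH1* fell further than monosome footprints in the strains without the modifications. *GLN1* had 465 and 427 disome CPM in the triple deletion, 487 and 466 in *ncs2*∆*elp6*∆, 1253 and 1284 in *hel2*∆, and 1382 and 1376 in WT. *GDH1* had 191 and 148 disome CPM in the triple deletion, 427 and 447 in *ncs2*∆*elp6*∆, 289 and 302 in *hel2*∆, and 832 and 841 in WT. The disome level of *GLN1* thus separated by *NCS2* and *ELP6*, and that of *GDH1* was highest in WT and lowest in the triple deletion. *GLT1* had 810.0 and 755 disome CPM in the triple deletion, 529.7 and 485 in *ncs2*∆*elp6*∆, 800.3 and 795 in *hel2*∆, and 641 and 614 in WT. *GDH2* had 131 and 107 in the triple deletion, 119 and 105 in *ncs2*∆*elp6*∆, 124 and 107 in *hel2*∆, and 97.0 and 78.5 in WT. *GLT1* was low in *ncs2*∆*elp6*∆ alone, and the mutants overlapped for *GDH2*. The other 6 genes had few disome footprints: *GAP1* 9 to 26 per library, *DAL82* 5 to 20, *MEP3* 2 to 29, *MEP1* 3 to 11, *MEP2* 1 to 14 and *DAL80* 1 or 2.

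The ratio of disome to monosome CPM in same-numbered libraries sets the disome level of a gene against its monosome level. For *GLN1* its log2 was -0.08 and -0.15 in the triple deletion, -0.07 and -0.23 in *ncs2*∆*elp6*∆, 0.51 and 0.65 in *hel2*∆, and 0.95 and 1.00 in WT. For *GDH1* it was 0.26 and -0.13 in the triple deletion, -0.04 and -0.07 in *ncs2*∆*elp6*∆, 0.50 and 0.53 in *hel2*∆, and 0.65 and 0.66 in WT. Both enzymes carried more disomes per monosome where *NCS2* and *ELP6* were intact. *GLT1* had 0.80 and 0.81 in the triple deletion, 0.38 and 0.20 in *ncs2*∆*elp6*∆, 0.37 and 0.40 in *hel2*∆, and 0.74 and 0.81 in WT. *GDH2* had 0.89 and 0.87 in the triple deletion, 1.40 and 1.15 in *ncs2*∆*elp6*∆, 1.08 and 0.88 in *hel2*∆, and 1.53 and 1.44 in WT. The median of all genes lay between -0.40 and -0.09, and *GDH1*, *GLT1* and *GDH2* were above the median of the same pair in every pair. *GLN1* was above it in every pair except replicate 2 of *ncs2*∆*elp6*∆, where it had -0.23 against -0.13. *MEP3* had a low ratio in the strains that kept *HEL2*, at -1.29 and -1.33 in *ncs2*∆*elp6*∆ and -1.25 and -1.45 in WT. It had -0.45 and -0.32 in the triple deletion and -0.69 and -0.43 in *hel2*∆, and all these ratios rest on 2 to 29 disome counts each.

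**Figure D4:**
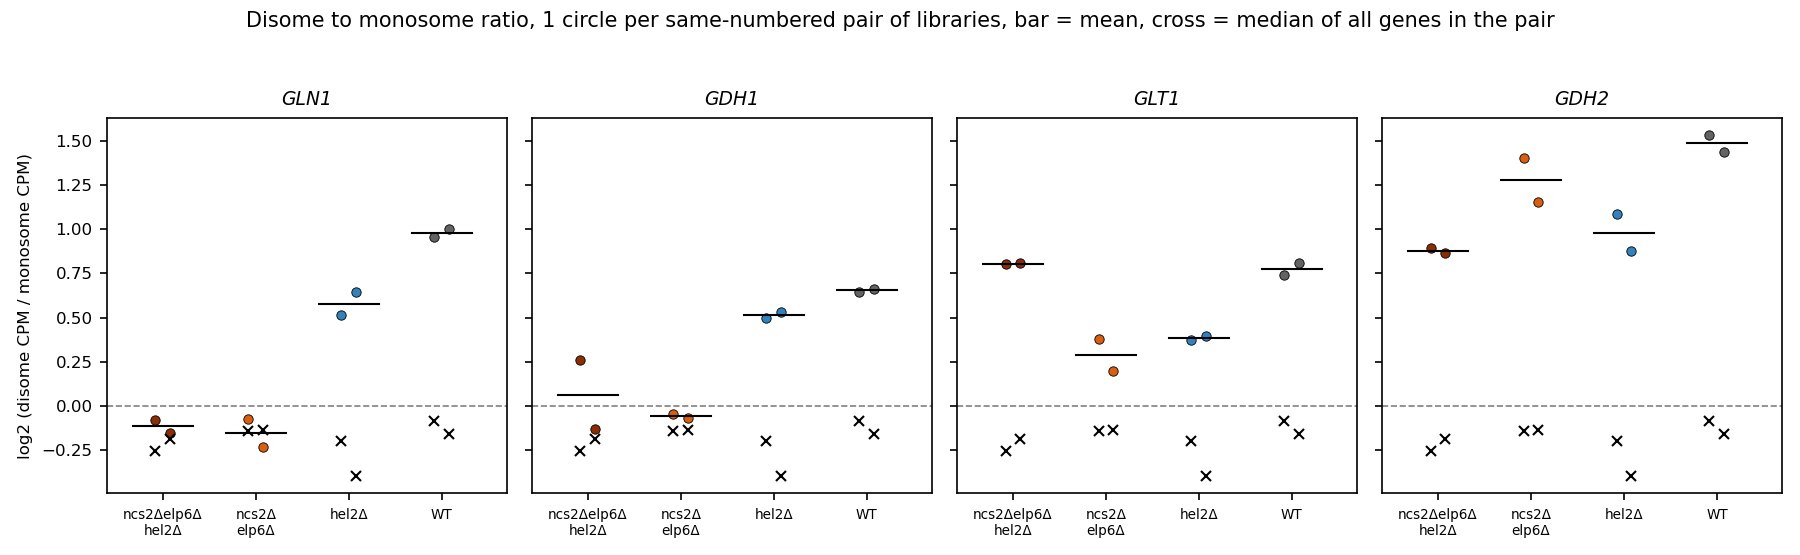
Log2 ratio of disome to monosome CPM for *GLN1*, *GDH1*, *GLT1* and *GDH2*, with a point per same-numbered pair of libraries, strains ordered from the triple deletion to WT, a bar at each mean and a cross at the median of all genes in each pair. *GLN1* is near 0 in both strains without *NCS2* and *ELP6* and near 1 in WT, and *GLT1* is highest in the triple deletion and WT.

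Disome enrichment is the log2 change of disome counts less that of monosome counts, tested in a single model. It fell for the 3 assimilating enzymes in *ncs2*∆*elp6*∆ against WT. *GLN1* fell by 1.19 (SE 0.12, interval -1.44 to -0.94, adjusted p = 7.31e-06), *GDH1* by 0.74 (SE 0.13, interval -1.01 to -0.47, adjusted p = 5.59e-04) and *GLT1* by 0.47 (SE 0.12, interval -0.73 to -0.22, adjusted p = 0.0103). *GDH2*, at -0.26 (adjusted p = 0.361), was not called, and neither were the permeases and regulators. Of 10 members tested, 0 were higher and 3 lower, against 18.7% of 5389 genes called, 10% higher and 8.68% lower, with medians of -0.42 for the members and -0.00 for all genes. *GLT1* was not called without *ncs2*∆*elp6*∆ disome replicate 2 (-0.41, adjusted p = 0.0901). In the disome libraries alone, *GLN1* fell by 1.88 (adjusted p = 3.02e-06), *GDH1* by 1.28 (adjusted p = 3.11e-05) and *GLT1* by 0.65 (adjusted p = 0.00171).

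Loss of *HEL2* left the disome enrichment of all 9 tested members uncalled in *hel2*∆ against WT. *GDH1*, whose monosome level fell most in this comparison, changed by -0.05 in enrichment (interval -0.40 to 0.29, adjusted p = 0.898). In the disome libraries alone it fell by 1.60 (adjusted p = 1.99e-08). *GLN1* stood at -0.27 (adjusted p = 0.348), *GLT1* at -0.27 (0.339), *GDH2* at -0.43 (0.24), *MEP3* at 1.03 (0.209) and *MEP2* at 2.37 (0.158), the last on 3 and 9 monosome counts in *hel2*∆. Over all 4999 genes tested, 5.2% were called, 2.4% higher and 2.8% lower, and the medians were -0.21 for the members and -0.02 for all genes.

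In the triple deletion against *ncs2*∆*elp6*∆, the disome enrichment of *GLT1* rose by 0.57 (SE 0.12, interval 0.34 to 0.81, adjusted p = 4.31e-04). It was the 1 member called of 9 tested, with 17.1% of 5017 genes called, 8.95% higher and 8.17% lower, and medians of 0.18 for the members and -0.00 for all genes. *GLN1* (0.17, adjusted p = 0.374), *GDH1* (0.18, 0.445) and *GDH2* (-0.30, 0.313) were not called. *GLT1* was therefore lower in enrichment in *ncs2*∆*elp6*∆ than in WT and higher in the triple deletion than in *ncs2*∆*elp6*∆, and the 2 comparisons share the *ncs2*∆*elp6*∆ libraries. *GDH1* disome footprints taken alone fell by 1.38 (adjusted p = 1.79e-08), close to the fall of its monosome footprints.

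In the triple deletion against *hel2*∆, the enrichment of *GLN1* fell by 0.79 (SE 0.16, interval -1.11 to -0.46, adjusted p = 0.00273), as it did where Hel2 was present. *GDH1* stood at -0.55 (SE 0.18, interval -0.92 to -0.18, adjusted p = 0.0547), *GLT1* at 0.33 (SE 0.15, adjusted p = 0.179) and *GDH2* at -0.17 (adjusted p = 0.674). With 0 higher and 1 lower of 9 members tested, 9.09% of 5030 genes were called, 4.57% higher and 4.51% lower, and the medians were -0.46 for the members and -0.01 for all genes. *GDH1* was called without *hel2*∆ disome replicate 1 (-0.67, adjusted p = 0.00176) or triple deletion disome replicate 1 (-0.77, 0.0166), with no filter on low counts (0.0205), with TMM computed within each library type (0.0373) and with same-numbered libraries of a strain as a block (0.0178), and *GLT1* was called without *hel2*∆ disome replicate 2 (0.42, 0.0148) and with library totals (0.42, 0.0302). *GLN1* disome footprints alone fell by 1.74 (adjusted p = 1.70e-10), and those of *GDH1* by 1.04 (adjusted p = 9.50e-06).

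Other regulators of nitrogen catabolism were surveyed in a list of 10 genes. In *ncs2*∆*elp6*∆ against WT, 6 rose and 1 fell, beside 26.6% and 26.4% of all genes. The GATA activator *GAT1* rose by 0.91 (adjusted p = 2.00e-05), *UGA3*, the activator of genes for GABA use, by 0.83 (adjusted p = 1.26e-05) and *NPR2*, a regulator of TORC1, by 0.48 (adjusted p = 0.00789), whereas the permease-stabilising kinase *NPR1* fell by 0.31 (adjusted p = 0.0224). In *hel2*∆ against WT only *NPR3* was called (0.82, adjusted p = 0.00165), beside 31.9% of all genes. In the triple deletion, *GAT1* fell by 0.84 (adjusted p = 0.00106) and *UGA3* rose by 0.42 (adjusted p = 0.0157) against *ncs2*∆*elp6*∆, where 24.3% of all genes were called. Against *hel2*∆, where 44.2% were called, *UGA3*, *GZF3* and *GLN3* rose by 1.12, 0.62 and 0.56 and *NPR1* fell by 0.83. The list's median was 0.41, 0.15, 0.00 and 0.19 in these 4 comparisons, beside 0.02, 0.03, 0.00 and 0.00 for all genes. The effect of *HEL2* did not differ by background past the threshold for any of the 10 (5.29% of all genes). In disome enrichment, *GZF3* and *URE2*, whose product holds Gln3 in the cytoplasm, rose by 1.72 and 1.48 and *NPR1* fell by 1.41 in *ncs2*∆*elp6*∆ against WT (3 of 10 called, 18.7% of all genes), and none was called in *hel2*∆ against WT (5.2% of all genes). *URE2* fell by 0.55 in the triple deletion against *ncs2*∆*elp6*∆ (1 of 10, 17.1% of all genes), and *GLN3* fell by 1.15 against *hel2*∆ (1 of 10, 9.09% of all genes).

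Of 16 other genes for the breakdown of poor nitrogen sources, 15 were tested in monosomes of *ncs2*∆*elp6*∆ against WT, and 5 rose and 0 fell, beside 26.6% and 26.4% of all genes. *DAL7* and *DAL3*, enzymes of allantoin breakdown, rose by 2.11 (adjusted p = 8.66e-06) and 1.17 (adjusted p = 0.00448), and *PUT4*, the proline permease, rose by 2.08 (adjusted p = 3.48e-04), all at low levels: *DAL7* averaged 4.64 CPM in *ncs2*∆*elp6*∆, against 0.901 CPM in WT. In *hel2*∆ against WT, 1 of 12 rose and 2 fell, beside 14.7% and 17.2% of all genes. *DUR1,2* rose by 0.37 (adjusted p = 0.0343), *CAR1*, arginase, fell by 0.74 (adjusted p = 9.40e-05) and *CAR2*, ornithine transaminase, by 0.33. In the triple deletion against *ncs2*∆*elp6*∆, 0 of 15 rose and 4 fell, among them *CAR1* by 0.91, *CAR2* by 0.88 and *PUT2* by 0.52, beside 12% and 12.2% of all genes. Against *hel2*∆, 1 of 8 rose (*DAL7*, 2.02) and 4 fell, beside 22.5% and 21.7%. Among those that fell were *CAR2* and *DUR1,2*, by 0.63 each, and *UGA1*, by 0.54. Medians over the genes tested were 0.11, -0.05, -0.38 and -0.29 in these 4 comparisons. The effect of *HEL2* differed between backgrounds for *DUR1,2*, urea amidolyase (-0.74, adjusted p = 0.0123), *CAR2* (-0.54, 0.0118) and *PUT2* (-0.48, 0.0283) of 15 tested, beside 2.3% of all genes called lower. Disome enrichment fell for 3 of 16 in *ncs2*∆*elp6*∆ against WT (*CAR2* by 1.06, *UGA1* by 0.68, *CAR1* by 0.50), beside 8.68% of all genes. It was called for 0 of 7 in *hel2*∆ against WT (5.2% of all genes), rose for 2 of 8 in the triple deletion against *ncs2*∆*elp6*∆ (*CAR1* 0.83, *CAR2* 0.45, beside 8.95% of all genes) and fell for 1 of 8 against *hel2*∆ (*CAR2* by 0.56, beside 4.51%).

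Alpha-ketoglutarate is the carbon skeleton that Gdh1 and Glt1 use, and genes of its supply, with the *GDH1* copy *GDH3*, formed the last list, of 8 genes. In *ncs2*∆*elp6*∆ against WT, *CIT1* and *ACO1*, mitochondrial citrate synthase and aconitase, rose by 0.91 (adjusted p = 2.14e-07) and 0.66 (adjusted p = 1.55e-05), and *CIT2*, the peroxisomal citrate synthase, and *IDP1* fell by 1.21 (adjusted p = 4.01e-05) and 0.20, so that 4 of 7 were called beside 53% of all genes. In *hel2*∆ against WT, *CIT1* alone was called of 7 (0.26, adjusted p = 0.0309), beside 31.9% of all genes. Turning to the triple deletion, *IDP2* rose by 1.86 and *ACO1* fell by 0.39 of 8 tested against *ncs2*∆*elp6*∆, beside 24.3% of all genes called. The rise of *IDP2* (SE 0.61, adjusted p = 0.0353) could be tested in no other pair of strains, for lack of counts. Against *hel2*∆, *CIT1*, *IDH1* and *ACO1* rose by 0.71, 0.52 and 0.44 and *CIT2* and *IDP1* fell by 0.93 and 0.29 of 6 tested, beside 44.2%. The medians in these 4 comparisons were 0.21, -0.16, -0.07 and 0.18. None of 8 was called for the difference in the effect of *HEL2* by background (5.29% of all genes). In disome enrichment, *IDH2* rose by 0.74 and *IDP1* fell by 0.59 of 7 tested in *ncs2*∆*elp6*∆ against WT (18.7% of all genes called), and *CIT2* rose by 1.15 and *CIT1* fell by 0.97 of 6 tested in *hel2*∆ against WT (5.2%). For the triple deletion, *CIT2* and *ACO1* rose by 0.81 and 0.39 and *CIT1* and *IDH2* fell by 0.64 and 0.36 of 6 tested against *ncs2*∆*elp6*∆ (17.1%), and *IDH1* fell by 0.70 of 6 tested against *hel2*∆ (9.09%).

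Gcn4, the activator of amino acid biosynthesis genes, was measured beside the members. *GCN4* averaged 192 ± 3.40 CPM in the triple deletion, 138 ± 2.56 in *ncs2*∆*elp6*∆, 63.9 ± 9.22 in *hel2*∆ and 24.7 ± 3.08 in WT (SD, n = 2, 3, 2 and 3 libraries). It rose in all 4 monosome comparisons, by 2.22 in *ncs2*∆*elp6*∆ over WT (adjusted p = 5.71e-11), 1.14 in *hel2*∆ over WT (2.15e-05), 0.34 in the triple deletion over *ncs2*∆*elp6*∆ (0.00685) and 1.44 over *hel2*∆ (1.21e-17), so it was highest in the triple deletion, where *GDH1* was lowest, and lowest in WT, where *GDH1* was highest, whereas *ncs2*∆*elp6*∆ lay above *hel2*∆ for both genes. *LEU3*, the activator of leucine biosynthesis genes, changed by 0.10, 0.19, 0.24 and 0.17 in the same order and was not called. The part of either activator in the members' levels was not tested.

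*GDH1* ranged over 1.68 on the log2 CPM scale between its strain means, the widest range among the members with counts in every strain. *DAL80* ranked above it on that scale only through the prior count given to its libraries at 0, and its bound is the 2.49-fold given above. Over the 10 monosome libraries, the genes whose log2 CPM followed *GDH1* most closely of 5012 were *OAC1*, a mitochondrial oxaloacetate carrier (Pearson r = 0.995), *ILV5*, an enzyme of branched-chain amino acid synthesis (r = 0.989), and *SSE1*, a chaperone (r = 0.980). *OAC1* lay between 10.6 and 12.6 CPM in the triple deletion, 75.2 and 102 in *ncs2*∆*elp6*∆, 16.1 and 17.2 in *hel2*∆, and 144 and 160.0 in WT, the same order of strains as for *GDH1*. *DAL80*, at 0 counts in 5 of the 10 libraries, was most like *TUM1* (r = 0.990), *TRP5* (r = 0.984) and *AAT2* (r = 0.982), and with so few counts these describe little beyond the absence of *DAL80* counts in *hel2*∆ and WT. The libraries in these correlations share their strain in groups of 2 or 3, so the values describe likeness over 4 strains and carry no test.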

How the data were processed

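Both deposited tables, monosome and disome, hold unnormalized counts of footprints for each open reading frame. According to the study's methods they trimmed adapters and linker bases, removed noncoding RNA reads with STAR 2.5.3a and counted reads mapped uniquely to open reading frames with Bowtie 1.2.3 (versions and the build sacCer3 from the submitters' processing notes). Removal of duplicates is not stated, so floors cover counting error only. Groups and replicate numbers came from the titles, and columns of values left unmapped numbered 0.

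Testing of counts relied on edgeR 4.0.16 (R 4.3.3) and its quasi-likelihood fit, with TMM, filterByExpr, robust dispersions and Benjamini-Hochberg adjustment over all genes. Fits held the strains compared, and all 4 for the difference between backgrounds. Disome enrichment was the interaction of library type and strain over the 5693 genes in both tables. CPM used library totals, and log2 ratios a prior count of 2. Positions came from RefSeq R64, where 10 of 10 members, 5716 monosome and 5556 disome identifiers matched.

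The members and gene lists were chosen with earlier results of these data known. All members, the deleted and marker genes, *GCN4* and *LEU3* were named. From each list, up to 3 called genes with the largest rise and up to 3 with the largest fall were named per comparison, and the 3 genes most like each of the 2 most variable members. Alternatives were DESeq2 1.42.0, no filter, thinning to 2381991 counts, blocks, TMM within library type, disomes alone, each library left out and, chosen after seeing the data, library totals. On simulated counts 89% to 93% of 2-fold changes were recovered in the 4 monosome comparisons, 71% for the difference between backgrounds and 37% to 58% in disome enrichment, and 3.05% to 10.4% of calls were false. A small set of genes was changed there, up and down alike, and all others were equal between strains. Recovery was averaged over genes of all levels, so it need not hold for members with low counts.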

Additional observations from a re-analysis of the deposited data

Results flagged for a closer look

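Differences between backgrounds were seen for 2 members. The change of *GLT1* on loss of *HEL2* was 0.02 in the triple deletion over *ncs2*∆*elp6*∆ and 0.49 in *hel2*∆ over WT, a difference of -0.46 that was past the threshold of the interaction test (adjusted p = 0.00999). The change of *DAL82* was -0.96 in the triple deletion over *ncs2*∆*elp6*∆ and 0.58 in *hel2*∆ over WT, the second not called, and the difference of -1.54 was past the threshold too (adjusted p = 0.0147). *DAL82* rested on 15 and 21 counts in the triple deletion and 23 and 41 in *hel2*∆, whereas *GLT1* had more than 400 CPM in each of these libraries. Both calls were lost without some of the single libraries that lacked *HEL2*, and the libraries without *HEL2* were the shallow ones, so depth and genotype cannot be told apart.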

How the results depend on the processing

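Recomputed values of single members stayed on their side of the threshold 427 times under settings that kept all libraries, 19 of them with the sign changed and uncalled in both, while 13 calls were lost, 11 gained and 1 had its sign reversed with a call. When 1 library was left out they stayed 565 times, 39 of them with the sign changed and uncalled, with 24 calls lost and 5 gained. With libraries thinned to equal depth, 3 members were called in *ncs2*∆*elp6*∆ over WT and 1 for the difference between backgrounds. With DESeq2, 1321 genes were called in monosomes of the triple deletion over *hel2*∆ and 265 in its enrichment, and 1 member for the difference. For that difference DESeq2 gave *DAL82* no adjusted p-value (-1.52, unadjusted p = 3.95e-04 in its Wald test). Members without an adjusted p-value are not in the tallies above. The disome libraries alone are counted among these settings, although they leave out the monosome reference and so measure the disome level and not enrichment. In the disome libraries alone *GDH1* had the opposite sign in the triple deletion over *ncs2*∆*elp6*∆ (-1.38), where 2 members were called. There 38 genes and 1 member were called in *hel2*∆ over WT, and 1136 genes and 2 members in the triple deletion over *hel2*∆. In enrichment of that last comparison, 2 members were also called with no filter, TMM within library type, the culture block and library totals.

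With each library left out in turn, the monosome counts of called genes ran from 632 to 2199 in *hel2*∆ over WT, from 647 to 1314 in the triple deletion over *ncs2*∆*elp6*∆ (2 to 5 members), from 1431 to 2333 over *hel2*∆, and from 46 to 691 for the difference (0 to 2 members). The enrichment counts ran from 495 to 1079 in *ncs2*∆*elp6*∆ over WT, from 28 to 468 in *hel2*∆ over WT, from 514 to 925 in the triple deletion over *ncs2*∆*elp6*∆, and from 173 to 832 over *hel2*∆ (1 to 2 members). In monosomes, the counts moved by more than 1.5 times without *hel2*∆ replicate 1 (702 over WT, 91 for the difference) or 2 (632, 46 and, for the triple deletion over *hel2*∆, 1431), without triple deletion replicate 1 (647 over *ncs2*∆*elp6*∆) or 2 (805 and, for the difference, 99), and without WT replicate 3 (691 for the difference). In enrichment they did so without *ncs2*∆*elp6*∆ disome replicate 1 (644 over WT, 571 for the triple deletion over it) or 2 (495 and 514). The count for *hel2*∆ over WT was 28 without either *hel2*∆ monosome library, 108 or 110 without WT monosome replicate 1 or 2, 76 without *hel2*∆ disome replicate 2 and 468 without WT disome replicate 2. The count for the triple deletion over *hel2*∆ was 303 or 227 without triple deletion monosome replicate 1 or 2, 297 or 255 without its disome replicate 1 or 2, 189 or 173 without *hel2*∆ monosome replicate 1 or 2 and 832 without *hel2*∆ disome replicate 1.

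Deviations of same-numbered libraries of the 2 strains compared correlated between -0.18 and 0.07, so the numbers were not taken to pair libraries across strains. Whether the monosome and disome libraries of a strain that share a number came from the same culture was not tested. The ratios and the culture block paired them by number, and the main enrichment fit did not. With the replicate block, *GDH2* was not called in the triple deletion over *ncs2*∆*elp6*∆ (0.35, adjusted p = 0.0511) and *DAL82* was called in *hel2*∆ over WT (0.73, adjusted p = 0.0134), and no other member's call changed. Low counts limit *DAL80*, *MEP1*, *MEP2* and most disome values of the permeases and regulators. The cause of these shifts was not tested.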
